A study of Mus musculus with 66 samples.

Results

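A set of 10 genes that restrain or report signalling through the kinase ERK were followed across 66 RNA-seq libraries of cultured mouse neurons: Dusp1, Dusp4, Dusp5, Dusp6, Dusp14, Spry1, Spry2, Spry4, Spred1 and Etv5. They were chosen by name from what they are known to do, but with earlier results of these data known. They are 10 of the 30084 gene symbols in the count table, and all 10 are among the 16145 genes with enough counts to be tested. The neurons were grown from wild-type mouse embryos of stage e16.5, in separate male and female cultures. Lentivirus brought in a hairpin RNA (shRNA) that depletes 1 chosen mRNA, which was that of Tbr1, Setd5, Med13l, Mbd5, Kmt2c, Kdm6b, Dnmt3a, Chd8 or Ash1l. A nontargeting shRNA and cultures with no virus served as controls, and all virus was washed away on day 6 before lysis on day 10. With both sexes this gives 22 groups of 3 replicates, and the labels put the intended level of a target at about 50%. The labels mention triplicate wells but not separate cultures or litters, so p-values measure the spread between these libraries, which may be technical. The columns taken as nontargeting are named Luc in the count table.

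ERK is the last kinase of a cascade that runs from growth factor receptors and, in neurons, from calcium entry through Ras, Raf and MEK. Active ERK switches on genes that then damp it, so that the mRNAs of such feedback genes are used as a readout of the pathway. The dual-specificity phosphatases (Dusp genes) remove phosphate from ERK and related kinases, Sprouty and Spred proteins act further up on Ras and Raf, and Etv5 is an ETS transcription factor whose own mRNA follows receptor signalling.

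Dusp6 encodes a phosphatase of the cytoplasm that prefers ERK. Dusp1, Dusp4 and Dusp5 encode nuclear phosphatases, of which the first also acts on the kinases JNK and p38 and the last is selective for ERK. Dusp14 encodes a small phosphatase without the kinase-binding domain of the others. On GRCm38, the assembly also called mm10, the GENCODE M21 annotation places Dusp6 at chr10:99263231-99267489, Dusp1 at chr17:26505590-26562128, Dusp4 at chr8:34807297-34819894, Dusp5 at chr19:53529109-53542431 and Dusp14 at chr11:84048041-84069261. It places Spry1 at chr3:37639947-37644598, Spry2 at chr14:105891947-105896819, Spred1 at chr2:117121374-117182279 and Etv5 at chr16:22381309-22439719.

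RefSeq (GRCm38.p6) gave the sequence before the transcription start for 8 of the 10 genes. Those of Dusp1, Dusp5 and Dusp14 are shown because they hold a match to one of the sites through which activity and ERK are known to act on genes. The 250 bases end at the base before the start, run 5′ to 3′ on the gene's strand, and have the matches in capitals. Dusp1 lies at chr17:26508473-26508722 on the minus strand, Dusp5 at chr19:53528895-53529144 on the plus strand and Dusp14 at chr11:84068358-84068607 on the minus strand.
Dusp1: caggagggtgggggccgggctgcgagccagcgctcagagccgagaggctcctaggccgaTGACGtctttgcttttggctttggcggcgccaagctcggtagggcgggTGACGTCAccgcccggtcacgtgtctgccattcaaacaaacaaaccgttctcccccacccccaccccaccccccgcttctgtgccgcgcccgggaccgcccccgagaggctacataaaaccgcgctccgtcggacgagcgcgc
Dusp5: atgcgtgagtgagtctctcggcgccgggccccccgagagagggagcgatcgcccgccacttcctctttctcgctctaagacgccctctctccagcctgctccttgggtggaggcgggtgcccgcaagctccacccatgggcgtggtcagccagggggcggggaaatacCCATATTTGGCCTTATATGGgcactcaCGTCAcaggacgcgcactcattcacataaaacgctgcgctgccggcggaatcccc
Dusp14: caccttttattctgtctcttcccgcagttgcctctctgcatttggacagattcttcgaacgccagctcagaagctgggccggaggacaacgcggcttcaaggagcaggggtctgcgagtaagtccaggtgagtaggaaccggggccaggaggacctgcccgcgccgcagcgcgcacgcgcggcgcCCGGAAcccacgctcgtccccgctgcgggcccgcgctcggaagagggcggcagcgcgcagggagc

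The Dusp1 stretch holds a full cAMP response element, TGACGTCA, from 143 to 136 bases before the start. Its shorter core TGACG, which also matches inside the full element, occurs once more at 191 to 187 bases. Dusp5 has a pair of adjoining CArG boxes, the site of serum response factor, at 82 to 73 and 72 to 63 bases, and the shorter core on the opposite strand at 55 to 51 bases. In Dusp14 the ETS core CCGGAA stands at 65 to 60 bases. Both strands were searched, and of 32851 promoter stretches of the same length 1.55% held the full element, 17.8% the shorter core, 1.47% a CArG box and 12% the ETS core. These matches describe letters and do not show that a factor binds there.

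Over the 66 libraries the highest level per length belonged to Spry2, with a median of 23.5 CPM per kilobase of exon (CPM gives counts scaled to the same library total), and the lowest to Spry1, with 3.21. Between them, in falling order, stood Dusp4 with 18.9, Dusp6 with 16.7, Dusp1 with 14.8, Etv5 with 11.5, Spred1 with 9.57, Dusp14 with 7.17, Spry4 with 4.85 and Dusp5 with 4.40 CPM per kilobase. Exon length here is that of all annotated exons merged, 3311 bases for Dusp1, so the order of close genes depends on the annotation. No value rested on few counts, since the smallest count of any of the 10 genes in any library was 72. The genes differed widely in how far their levels ranged. Spry4 ranged from 3.66 to 46.6 CPM, a 12.7-fold span, Etv5 from 13.3 to 119.5 CPM (8.99-fold) and Dusp5 from 2.74 to 22.3 CPM (8.11-fold). Dusp1 and Dusp4 spanned 7.39-fold and 7.14-fold, Dusp6 and Spry2 5.13-fold and 5.05-fold, and Spry1 4.68-fold. Dusp14 moved over 2.84-fold and Spred1 over 2.10-fold, from 43.5 to 91.2 CPM. In bulk libraries fewer cells of a type and less RNA per cell cannot be told apart.

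Total counts ranged from 13759741 to 66558546 per library. Each of the 9 targets was lower in its own knockdown in both sexes, at 22.3% to 54.4% of the nontargeting mean, and 15 of these 18 differences passed the test. In males, replicate 1 labelled Setd5 shRNA had Setd5 at 141.2 CPM, against 42.9 and 42.7 CPM in the other 2 of its group, which goes against the label. The library labelled Kdm6b shRNA male replicate 1 also goes against its label, with Setd5 at 44.9 CPM and Kdm6b at 39.9 CPM, where the other 2 had Kdm6b at 17.2 and 17.1 CPM. Kdm6b stood at 23.1 CPM in Setd5 shRNA male replicate 1, against 47.2 and 62.6 CPM in the other 2 of its group. Each of these libraries was thus low in the target of the other, and whether they were exchanged was not tested. Leaving both out changed no call on the 10 genes in the tests of the knockdowns without the replicate number. Markers of neurons summed to 4469 to 6296 CPM and those of astrocytes and radial glia to 327.6 to 1349 CPM, whereas 6 microglial markers summed to at most 3.87 CPM and 4 markers of dividing cells to at most 10.9 CPM.

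**Figure D1:**
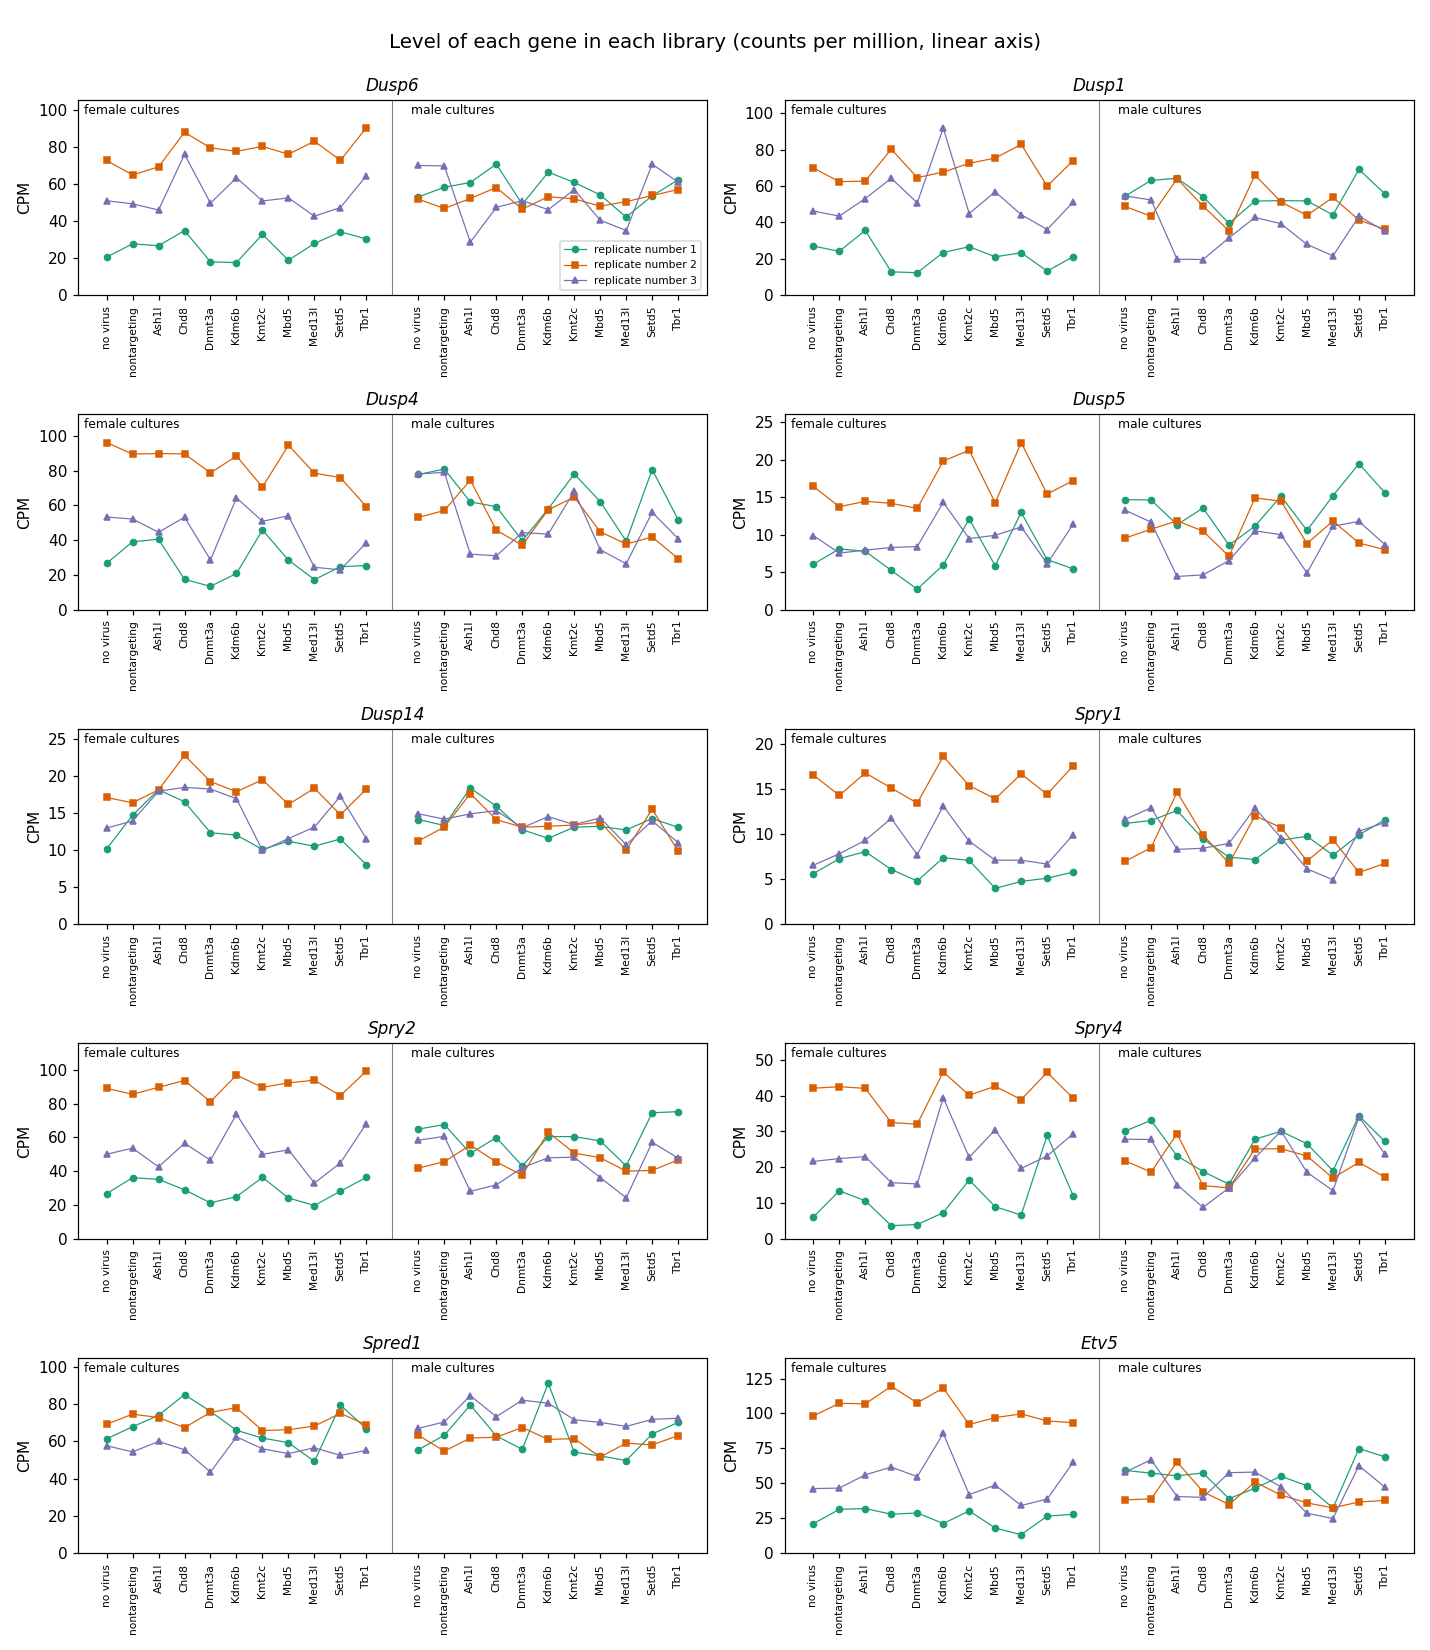
Level of each of the 10 genes in each of the 66 libraries. The y axis of each panel gives CPM on a linear scale from 0, the x axis the treatment within female and male cultures, and colour and symbol the replicate number, whose points are joined by lines only to guide the eye. In all 11 female groups the line of number 2 lies above the others for Dusp4, Dusp5, Dusp6, Etv5, Spry1, Spry2 and Spry4.

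In female cultures the widest differences in these genes followed the replicate number. The standard deviation of log2 CPM between libraries of 1 female group was 1.18 for Spry4 and 1.07 for Etv5, whereas that of the 11 group means was 0.42 and 0.23. In all 11 female groups, control groups included, Dusp4, Dusp5, Dusp6, Etv5, Spry1, Spry2 and Spry4 were each highest in the library with number 2. In all 11 female groups Dusp1, Dusp6, Etv5, Spry1 and Spry2 were lowest in the library with number 1. The labels do not say what the number stands for.

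Spry4, which encodes a Sprouty protein that blocks activation of Ras and Raf, had medians of 8.96 CPM in the 11 female libraries with number 1, 42.0 CPM with number 2 and 22.8 CPM with number 3. The lowest and highest were 3.66 and 28.9 CPM for number 1, 32.0 and 46.6 CPM for number 2, and 15.3 and 39.4 CPM for number 3. Numbers 1 and 2 did not overlap. In male cultures the medians were 27.2, 21.4 and 22.6 CPM and all 3 numbers overlapped.

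Etv5 ranged from 13.3 to 32.0 CPM (median 27.8) for female number 1, 92.1 to 119.5 CPM (median 99.7) for number 2 and 34.2 to 85.7 CPM (median 48.8) for number 3. None of the 3 ranges touched another. Spry2, a Sprouty gene that growth factors induce in many tissues, ranged from 19.7 to 36.3 CPM for number 1 and from 81.1 to 99.2 CPM for number 2. For number 3 it ranged from 32.9 to 73.6 CPM, so that only numbers 1 and 3 overlapped. Spry1 ranged from 3.98 to 8.06 CPM for number 1 and from 13.5 to 18.6 CPM for number 2. Its number 3 libraries lay at 6.55 to 13.1 CPM and overlapped those of number 1.

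Among the phosphatases, Dusp6 went from 17.6 to 34.9 CPM in female number 1 to 64.9 to 90.4 CPM in number 2, with 42.6 to 76.0 CPM in number 3. Dusp1, an immediate early gene of neuronal activity, went from 12.4 to 35.6 CPM in number 1 to 60.0 to 82.9 CPM in number 2. Dusp4 lay at 13.5 to 45.8 CPM in number 1 and at 59.2 to 96.1 CPM in number 2. For these 3 genes the libraries with numbers 1 and 2 were fully apart. Dusp5 ranged from 2.74 to 12.99 CPM and from 13.5 to 22.3 CPM, close but again apart, whereas Dusp14 overlapped, at 8.03 to 18.2 CPM and 14.8 to 22.8 CPM.

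The replicate number was tested in a fit that held it as a term within each sex, a test added after these values were seen (edgeR's quasi-likelihood F test, adjusted by Benjamini-Hochberg over all genes tested, with a threshold of 0.05). In females the number made a difference for 10 of the 10 genes, where 72.6% of all genes tested passed. Number 2 was above number 1 for 9 of 10, where 32.7% of all genes were above and 65.6% differed in either direction. The fold was 4.20 for Spry4 (adjusted p = 2.35e-14), 4.13 for Etv5, 3.29 for Dusp1, 3.18 for Spry2, 3.17 for Dusp4, 2.98 for Dusp6, 2.65 for Spry1, 2.37 for Dusp5 and 1.498 for Dusp14. For Spred1 it was 1.05, with an adjusted p of 0.326. Number 3 was above number 1 for the same 9 genes, from 1.20-fold for Dusp14 to 2.43-fold for Dusp1 and Spry4, where 24.7% of all genes were above and 46% differed. The standard deviation within female groups put Spry4 at the 98.1 and Etv5 at the 96.6 percentile of all genes tested, whose median was 0.36, and Spred1 at the 28.3 percentile.

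In males the replicate number made a difference for 4 of 10 genes, Dusp1, Dusp5, Spry2 and Spred1, beside 28.7% of all genes tested. Number 3 was below number 1 for Dusp1, Dusp5, Spry2 and Dusp4, at 0.633, 0.633, 0.724 and 0.757 of it, where 24.4% of all genes differed. Spred1, which encodes a membrane protein that recruits the Ras inhibitor neurofibromin, went the opposite way. It was highest in number 3 in 10 of 11 male groups and lowest in number 3 in 10 of 11 female groups. Number 3 against number 1 was 1.17-fold in males (adjusted p = 0.00557) and 0.818-fold in females (adjusted p = 0.000222).

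Genes that neuronal firing induces moved with the same numbers as a sum, which does not show that each of them did. The summed level of 8 of them (Fos, Fosb, Junb, Egr1, Npas4, Arc, Nr4a1 and Bdnf) ranged from 54.8 to 192.6 CPM in female number 1, from 499.6 to 735 CPM in number 2 and from 201 to 574.1 CPM in number 3. In males it ranged from 264.2 to 638.2, from 230 to 514.4 and from 98.7 to 420.3 CPM. The astrocyte and radial glia list ran the other way in females, at 424.7 to 1349 CPM in number 1 and 327.6 to 572.3 CPM in number 2. Endothelial and mural markers summed to 7.47 to 36.3 CPM over all libraries, with medians of 11.6, 30.8 and 25.3 CPM for female numbers 1, 2 and 3 and of 23.01, 21.6 and 11.9 CPM for male ones. Fibroblast markers had medians of 31.2, 14.4 and 34.5 CPM in females and of 30.4, 27.7 and 16.4 CPM in males. The part of any of these lists in the levels of the 10 genes was not tested.

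**Figure D2:**
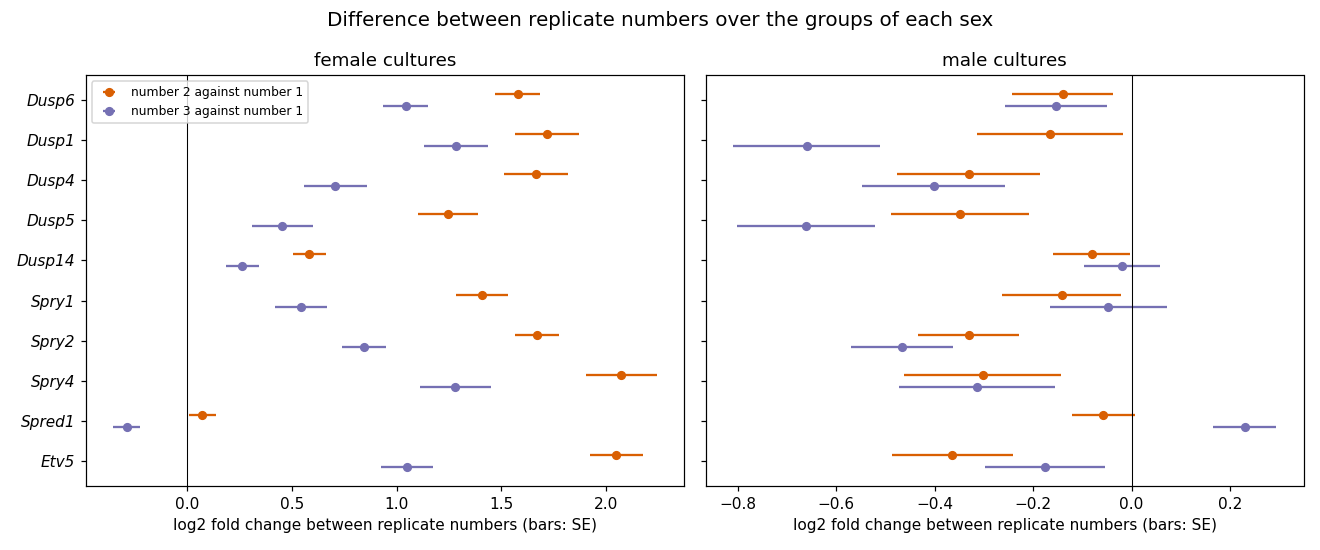
Differences between replicate numbers. Points give the log2 fold change of number 2 and of number 3 against number 1 over the 11 groups of each sex, with bars of 1 SE, and the x axes of the 2 panels differ in scale. In females 9 genes lie right of 0 for both numbers and Spred1 does not. In males the differences of number 3 include Dusp5 at -0.66, further from 0 than its 0.45 in females.

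Against this spread, no change of any of the 10 genes after any knockdown passed the test in the joint fit of all 66 libraries without the replicate number. All 9 knockdowns are set against the same nontargeting libraries, so their effects are not independent of each other. The count was 0 of 180 gene and knockdown pairs within a sex, where 2.48% of all such pairs over all genes were called, and 0 of 90 with the sexes averaged, where 6.99% were called (edgeR's quasi-likelihood F test, adjusted by Benjamini-Hochberg). At an unadjusted p under 0.05 the counts were 0 of 180 and 1 of 90, and DESeq2 gave the same counts, with 0 calls. The pair under 0.05 was Dusp4 after Med13l shRNA. The SE of an effect averaged over the sexes was 0.38 for Dusp4 and 0.44 for Spry4 on the log2 scale, but 0.13 for Spred1.

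The background differed widely between the knockdowns. Of all genes tested, the share called in males was 9.82% after Chd8, 8.06% after Med13l, 1.98% after Ash1l, 0.217% after Tbr1, 0.111% after Dnmt3a, 0.0867% after both Kdm6b and Kmt2c, 0.0619% after Mbd5 and 0.0557% after Setd5 shRNA. In females it was 10.2% after Med13l, 9.33% after Chd8, 3.12% after Setd5, 1.1% after Ash1l, 0.118% after Dnmt3a, 0.0991% after Kmt2c, 0.0619% after Tbr1, 0.0557% after Mbd5 and 0% after Kdm6b shRNA. Averaged over the sexes it was 24.1% after Med13l, 22.3% after Chd8, 6.16% after Ash1l, 5.3% after Setd5, 1.4% after Dnmt3a, 1.33% after Tbr1, 0.966% after Kdm6b, 0.694% after Kmt2c and 0.663% after Mbd5 shRNA. The 10 genes had 0 calls in each of these 27 comparisons. The Setd5 and Kdm6b shares in males and averaged over the sexes include the male libraries that go against their labels. For these targets the male and female shares therefore do not show a difference between the sexes.

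Dusp4, whose product dephosphorylates ERK in the nucleus, had a log2 fold change below 0 after every one of the 9 knockdowns with the sexes averaged, from -0.08 after Kmt2c to -0.83 after Med13l shRNA. Spry4 lay between -0.75 after Chd8 and 0.25 after Setd5 shRNA, and Etv5 between -0.60 after Med13l and 0.11 after Kdm6b shRNA. Spry1 reached -0.38 after Mbd5 shRNA and Spry2 -0.48 after Med13l shRNA. Dusp6 stayed between -0.17 and 0.25, and Spred1 between -0.13 and 0.19. The 95% intervals of the 9 Spred1 effects lay within -0.39 and 0.44, so a change of either sign beyond that is outside them, whereas those of Dusp6 reached from -0.82 to 0.89.

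The 10 genes leaned down after some knockdowns. After Dnmt3a shRNA 8 of 10 had a log2 fold change below 0, with a median of -0.32 against 0.00 over all genes tested. After Med13l shRNA it was 9 of 10 with a median of -0.25 against -0.01, and after Mbd5 shRNA 10 of 10 with a median of -0.15 against 0. After Kdm6b shRNA 1 of 10 was below 0 and the median was 0.10, with 1 of 10 in females (median 0.20) and 8 of 10 in males (median -0.04), where 1 of the 3 libraries goes against its label. These are counts of directions, and no gene in them passed the test.

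**Figure D3:**
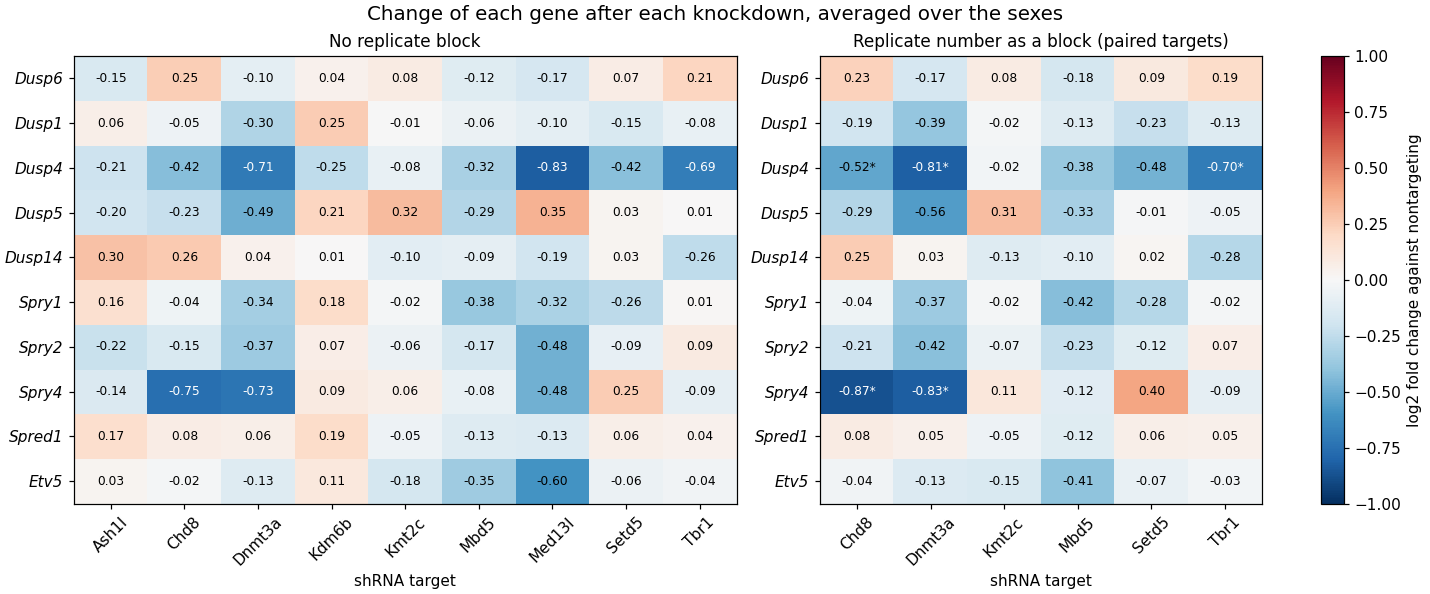
Log2 fold change of each gene against the nontargeting shRNA, averaged over the sexes, with blue for lower and red for higher. The left panel leaves the replicate number out for all 9 targets, the right panel has it as a block for the 6 targets whose libraries it pairs in both sexes, and a star marks an adjusted p under 0.05. No cell on the left has a star, and 5 on the right do, in the rows of Dusp4 and Spry4.

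The replicate number paired libraries in most comparisons, since the deviations of same-numbered knockdown and nontargeting libraries from their group means correlated above 0.1 for every number. This held in 8 of 9 knockdowns in females and 6 of 9 in males. With the number as a block, 5 of the 60 changes averaged over the sexes passed in the 6 knockdowns paired in both sexes, all of them lower, where 12.2% of all genes were called and 6.91% were lower. Within a sex 2 of 140 passed in the 14 paired comparisons, both lower, where 7% were called and 4.02% were lower. All 7 calls concern Dusp4 and Spry4.

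Spry4 was lower after Chd8 shRNA. Its levels were 3.66, 32.5 and 15.7 CPM in the female libraries with numbers 1, 2 and 3, against 13.4, 42.5 and 22.4 CPM in the nontargeting ones. In males they were 18.8, 14.9 and 8.76 CPM against 33.1, 18.6 and 27.8 CPM. The knockdown library was the lower of the pair in 6 of 6 pairs, although the groups overlap in both sexes. With the block the log2 fold change averaged over the sexes was -0.87 (SE 0.22, adjusted p = 0.00143), or 1.82-fold lower, where 36.9% of all genes were called. Without the block it was -0.75 with an adjusted p of 0.242. The call remained without any 1 library, with adjusted p up to 0.00995. In males alone it was -0.91 with the block (adjusted p = 0.0265), where 22.1% of all genes were called, and the call was lost without the Chd8 male library with number 3 (0.199) or without the nontargeting male library with number 1 (0.0972) or 3 (0.112). It was also lost with no filter on low counts (0.052).

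After Dnmt3a shRNA both Spry4 and Dusp4 were lower with the block. The Dnmt3a male libraries met the pairing rule by little, with a lowest correlation of 0.104 against 0.1. The block was fitted over all 66 libraries, those that it does not pair included. Spry4 stood at 3.96, 32.0 and 15.3 CPM in females and at 15.3, 14.2 and 14.2 CPM in males, so that all 3 male libraries lay below all 3 nontargeting ones. Its log2 fold change averaged over the sexes was -0.83 (SE 0.22, adjusted p = 0.0131), where 6.97% of all genes were called, against -0.73 with an adjusted p of 0.652 without the block. Dusp4 stood at 13.5, 78.7 and 28.7 CPM in females, against 39.1, 89.4 and 52.1 CPM with the nontargeting shRNA. In males it stood at 39.7, 37.1 and 44.3 CPM against 80.8, 57.0 and 79.0 CPM, again with no overlap. Its log2 fold change was -0.81 (SE 0.20, adjusted p = 0.00637), or 1.76-fold lower, against -0.71 with an adjusted p of 0.578 without the block. Both genes were lower in 6 of 6 pairs. The Dusp4 call remained without any 1 library, with adjusted p up to 0.0422. The Spry4 call was lost without the female library with number 1 of either the Dnmt3a shRNA (0.0686) or the nontargeting shRNA (0.0515), and with no virus as control (0.0556).

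In the male cultures with Dnmt3a shRNA a wider set of the genes sat under the controls. Dusp1, Dusp4, Dusp5, Dusp14, Spry2 and Spry4, 6 of 10, had all 3 libraries below all 3 nontargeting libraries, where 11% of all genes tested did. Dusp1 read 39.5, 35.4 and 31.6 CPM against 63.1, 43.4 and 52.3 CPM, and Dusp5 read 8.61, 7.11 and 6.55 CPM against 14.6, 10.7 and 11.7 CPM. Spry2 read 43.0, 37.6 and 42.0 CPM against 67.6, 45.6 and 60.6 CPM. Dusp14 lay below by little, at 12.76, 13.09 and 13.03 CPM against 13.33, 13.12 and 14.18 CPM. None of the 6 passed the adjusted test within males in the fit of all libraries, with the block (1.46% of all genes called) or without it. With the block and the males fitted on their own, Spry4 passed (log2 fold change -0.835, adjusted p = 0.0365). The share of all genes called in that fit was not counted. The activity-regulated genes summed to 264.2, 230 and 234.7 CPM in these libraries and to 490.3, 312.9 and 420.3 CPM in the nontargeting ones, and in the female library with number 1 to 54.8 against 138.4 CPM. The astrocyte and radial glia list summed to 1349 CPM in that female library against 708.4 CPM. It ranged down to 484.1 CPM in the Dnmt3a females, against 572.3 CPM at the lowest with the nontargeting shRNA. In males it ranged from 547.9 to 598.6 CPM, against 457.2 to 508.4 CPM. The part of either list in the lower Spry4 and Dusp levels was not tested.

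Dusp4 was also lower after Tbr1 shRNA, with 25.4, 59.2 and 38.5 CPM in females and 51.8, 29.4 and 40.9 CPM in males, lower in 6 of 6 pairs. With the block the log2 fold change was -0.70 (SE 0.20, adjusted p = 0.0226), where 6.57% of all genes were called. Without the block it was -0.69 with an adjusted p of 0.604. The call was lost without any of 4 libraries, the nontargeting female number 1 (0.0753), the nontargeting male number 3 (0.0876), or the Tbr1 female or male number 2 (0.0684 and 0.091), and with no virus as control (0.0511). The activity-regulated genes summed to 129.8, 650.2 and 349.6 CPM in these female libraries and to 483, 285.9 and 268.7 CPM in the male ones. The astrocyte and radial glia list summed to 653, 355.5 and 444.4 CPM and to 392.6, 451.5 and 465.4 CPM, like Dusp4 below the nontargeting library of the same number in 6 of 6 cases (708.4, 572.3 and 580.4 CPM, and 457.2, 498.8 and 508.4 CPM). The part of either list was not tested.

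After Chd8 shRNA Dusp4 read 17.4, 89.5 and 53.2 CPM in females and 59.3, 45.7 and 31.0 CPM in males. It was lower in 4 of 6 pairs, and the 2 female pairs with numbers 2 and 3 differed by little. The log2 fold change with the block was -0.52 (SE 0.20, adjusted p = 0.0355), and -0.42 with an adjusted p of 0.482 without it. This call was lost when any of 5 libraries was left out, with adjusted p up to 0.150 without the Chd8 female library with number 1. It was also lost with library totals in place of TMM scaling (0.0687), with no filter on low counts (0.0675) and with no virus as control (0.0889). The activity-regulated genes summed to 97.7, 672.7 and 379.8 CPM in the Chd8 female libraries and to 419.2, 336.4 and 134.1 CPM in the male ones. The astrocyte and radial glia list stood at 948 CPM in the Chd8 female library with number 1 and at 801 CPM in the male one with number 3, the libraries where Dusp4 and Spry4 were lowest within their sex. These were its highest values. In Chd8 females it ranged down to 327.6 CPM (mean 602.2), against 572.3 to 708.4 CPM (mean 620.4) with the nontargeting shRNA. In males it ranged down to 412 CPM (mean 552.3), against 457.2 to 508.4 CPM (mean 488.1). The part of either list in Dusp4 and Spry4 after Chd8 shRNA was not tested.

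Med13l shRNA gave the lowest group level of 6 of the 10 genes (Dusp4, Dusp6, Dusp14, Spry1, Spry2 and Etv5), in each case in males. How many of all genes tested had their lowest level in this group was not counted. Dusp4 read 39.4, 37.8 and 26.4 CPM in these male libraries, against 80.8, 57.0 and 79.0 CPM, and Etv5 read 32.3, 32.4 and 24.8 CPM against 57.3, 38.9 and 66.9 CPM. Spry2 read 43.1, 40.0 and 24.2 CPM and Dusp14 12.7, 10.0 and 10.7 CPM. In these 4 genes all 3 male libraries lay below all 3 nontargeting libraries, where 21.6% of all genes did. Within males the log2 fold change was -1.07 for Dusp4 (SE 0.55, adjusted p = 0.256) and -0.86 for Etv5 (SE 0.61, adjusted p = 0.444). The male replicate numbers did not pair the Med13l libraries. When the males were fitted on their own, so that the female spread was not shared, Dusp4 and Etv5 passed (adjusted p = 0.00908 and 0.0233). So did Spry4 after Chd8 shRNA (0.0096), and with each sex on its own and no block no other of the 180 pairs did. The share of all genes called in these fits was not counted. The activity-regulated genes summed to 282.8, 319.7 and 131 CPM in the Med13l male libraries and to 113.6, 653.6 and 201 CPM in the female ones, and the astrocyte and radial glia list to 339.1, 340.8 and 471.4 CPM and to 424.7, 372.1 and 448.9 CPM. The latter list was below the nontargeting library of the same number (457.2, 498.8 and 508.4 CPM in males, 708.4, 572.3 and 580.4 CPM in females) in 6 of 6 cases, as Dusp4 and Etv5 were in both sexes and Spry2 in males. The part of either list was not tested.

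In females, where the numbers paired the Med13l libraries, Dusp4 read 17.3, 78.5 and 24.4 CPM against 39.1, 89.4 and 52.1 CPM. With the block the log2 fold change was -0.79 (SE 0.28, adjusted p = 0.0323), where 27.9% of all genes were called, and without it -0.59 with an adjusted p of 0.551. The call was lost without any of 4 of the 6 libraries, with adjusted p from 0.0576 to 0.168, with no filter on low counts (0.0578) and with no virus as control (0.083). Etv5 read 13.3, 99.7 and 34.2 CPM in the same libraries and Spry4 6.62, 38.9 and 19.7 CPM. Dusp1, Dusp5 and Dusp6 had a log2 fold change above 0 in these females, and the other 7 below 0. Dusp5 read 12.99, 22.3 and 11.03 CPM against 8.11, 13.7 and 7.56 CPM, higher in each pair, whereas in males its mean was 12.7 against 12.3 CPM. Its log2 fold change averaged over the sexes was 0.35 (SE 0.34, adjusted p = 0.490).

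**Figure D4:**
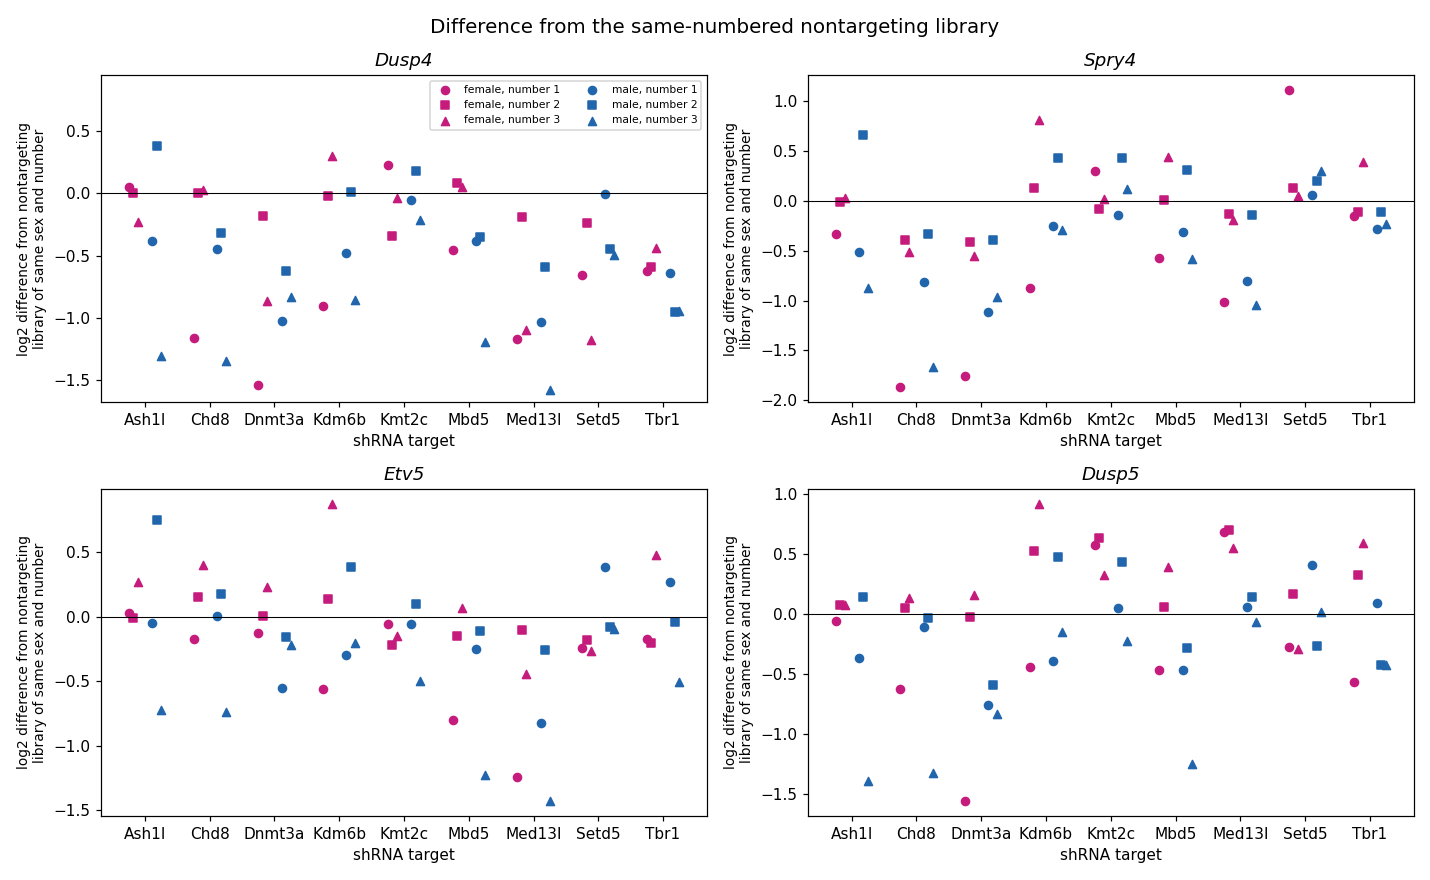
Log2 CPM of each knockdown library minus that of its same-numbered nontargeting library in the same sex, for Dusp4, Spry4, Etv5 and Dusp5. Colour gives the sex and symbol the number, and 0 means no difference. All 6 points of Dusp4 lie below 0 for Dnmt3a, Med13l, Setd5 and Tbr1, and all 6 points of Spry4 for Chd8, Dnmt3a and Med13l.

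Among the 9 knockdowns, without use of the control libraries, Dusp14 was the 1 gene of 10 with a difference (adjusted p = 0.0178), where 58.4% of all genes tested passed. With the replicate number as a block, which does not pair the libraries of every knockdown, 9 of 10 differed, the exception being Dusp1, and 79.8% of all genes did. The spread of Dusp14 within groups was small, with a standard deviation of log2 CPM of 0.13 in males. After Ash1l shRNA it read 18.2, 18.1 and 17.9 CPM in females against 14.7, 16.4 and 13.9 CPM, and 18.4, 17.6 and 14.9 CPM in males against 13.3, 13.1 and 14.2 CPM. All 3 libraries lay above all 3 nontargeting ones in both sexes, where 5.88% of all genes did so in females and 12.7% in males. The log2 fold change averaged over the sexes was 0.30 (SE 0.15, adjusted p = 0.316). After Chd8 shRNA the female libraries read 16.53, 22.8 and 18.5 CPM, also all above, where 10.1% of all genes did. After Tbr1 shRNA the male libraries read 13.08, 9.87 and 11.02 CPM, all below, where 10.2% of all genes did. The first of them lay just under the lowest nontargeting library, which read 13.12 CPM.

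The highest log2 fold change of Spry4 averaged over the sexes came after Setd5 shRNA, where it read 28.9, 46.5 and 23.1 CPM in females and 34.4, 21.4 and 34.1 CPM in males, above the nontargeting library in 6 of 6 pairs. The 34.4 CPM come from the male library that goes against its label. The change was 0.25 (SE 0.44, adjusted p = 0.828) and did not pass the test.

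Virus alone left no detectable mark on these genes. Between the nontargeting shRNA and no virus 0 of 10 were called in either sex or averaged, as were 0% of all genes, and with the sexes averaged the log2 differences lay between -0.08 and 0.12, with intervals that reached from -0.84 to 0.95. Between male and female nontargeting libraries 0 of 10 were called, beside 0.0434% of all genes, with log2 differences from -0.19 to 0.33. The test of the interaction found no effect of a knockdown on these genes that differed between the sexes. It called 0 of 90, beside 0.00206% over all genes, and gave 0 at an unadjusted p under 0.05. The share was highest for Setd5, at 0.0186%, with the male library that goes against its label included. Of the 90 estimates of male minus female, 72 lay below 0. After Chd8 shRNA 10 of 10 did (median -0.37), and after Setd5 shRNA 4 of 10 (median 0.15). These estimates share the nontargeting libraries and are not independent. The interaction with the smallest p was that of Mbd5 shRNA on Dusp5, at -0.64 for male minus female (SE 0.67, unadjusted p = 0.347, adjusted p = 1). For the controls and for the sexes the count at an unadjusted p under 0.05 was also 0, and DESeq2 gave 0 calls and 0 at that p in all 3 comparisons.

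Of the rest of the pathway, 114 of 116 listed genes were tested, from ligands and receptors to kinases, further feedback genes and targets. With the sexes averaged and no block, Chd8 shRNA raised 16 and lowered 20 of them, or 31.6%, beside 22.3% of all genes. Among its lower genes were Hras, which encodes a Ras protein (155 to 29.9 CPM, log2 fold change -2.37, SE 0.12, adjusted p = 1.75e-21), and Map2k1, which encodes MEK (151.7 to 52.1 CPM, -1.54, SE 0.11, adjusted p = 3.64e-16). Gab1, an adaptor of receptor tyrosine kinases, rose from 7.72 to 17.6 CPM (1.19, SE 0.15). In the same comparison Dusp6 had a log2 fold change of 0.25 and Etv5 of -0.02, neither past the test.

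Med13l shRNA raised 4 and lowered 21 of the 114, or 21.9%, beside 24.1% of all genes. Egfr, the epidermal growth factor receptor, fell from 18.4 to 3.92 CPM (log2 fold change -2.23, SE 0.27, adjusted p = 7.65e-09), and Ntrk2, the receptor of BDNF, from 619 to 200.1 CPM (-1.62, SE 0.20, adjusted p = 1.46e-08). The neuregulin receptor gene Erbb4 fell after Chd8 shRNA (-1.05, adjusted p = 5.71e-04) and after Med13l shRNA (-1.26, adjusted p = 5.34e-05). Ash1l shRNA raised 6 and lowered 7 (11.4%, beside 6.16% of all genes) and Setd5 shRNA raised 1 and lowered 7 (7.02%, beside 5.3%). Without the block edgeR called 0 of 114 after Dnmt3a and Tbr1 shRNA, with 11 and 6 at an unadjusted p under 0.05. With it, in the paired comparisons, 1 was higher and 9 were lower after Dnmt3a shRNA (8.77% of the list, beside 6.97% of all genes), and 3 were higher and 3 lower after Tbr1 shRNA (5.26%, beside 6.57%). After Chd8 shRNA the block gave 28 higher and 29 lower (50%, beside 36.9% of all genes). It gave 7 higher and 17 lower after Setd5 shRNA (21.1%, beside 16.2%). The counts for Setd5 shRNA, with and without the block, include the male library that goes against its label. After Kmt2c shRNA 3 were higher and 6 lower (7.89%, beside 2.97%), and after Mbd5 shRNA 1 was higher and 6 were lower (6.14%, beside 3.32%).

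The pathway gene called most often was Mknk2, which encodes a kinase that ERK activates and that phosphorylates the translation factor eIF4E. It rose after Ash1l, Chd8, Med13l and Setd5 shRNA, from 66.96 CPM with the nontargeting shRNA to 97.3, 105.1, 102.9 and 86.9 CPM. Ccnd1, which encodes cyclin D1, fell from 14.1 CPM to 3.02 CPM after Chd8 (log2 fold change -2.30, SE 0.29, adjusted p = 2.54e-08) and to 7.58 CPM after Med13l shRNA (-0.89, adjusted p = 0.0148). Rap1b, a Ras-like protein, and Rasa2, which turns Ras off, fell after both as well. Rap1b fell by 0.40 and 0.79 and Rasa2 by 0.40 and 0.79 on the log2 scale. Lamtor3, a scaffold for MEK and ERK, fell after Chd8 and Kmt2c shRNA by 0.58 and 0.44, and the receptor gene Alk fell after Ash1l shRNA by 1.16 and after Setd5 shRNA by 0.65, and rose by 0.49 after Chd8 shRNA.

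Over the 22 group means the genes whose profile was most like the mean standardized profile of the 10 were Nrsn1 (Pearson r 0.89, Spearman rho 0.85), Adcy8 (0.86 and 0.87), Kcnj3 (0.86 and 0.88), Npas4 (0.86 and 0.85) and Nckap1 (0.84 and 0.86). Npas4 encodes a transcription factor that neuronal activity induces, Adcy8 a calcium-stimulated adenylyl cyclase and Kcnj3 a potassium channel. The 10 genes themselves had r from 0.27 for Dusp14 and 0.39 for Dusp5 to 0.82 for Spry2 and 0.84 for Spry1 with that mean. Each of the 10 is part of that mean, which raises its r, whereas the genes named before are not. These values describe 22 points that share libraries of the same replicate numbers.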

How the data were processed

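RNA-seq libraries of polyA RNA were made with a stranded kit, per the labels' protocols. The deposited values are whole-number counts per gene, made with STAR, featureCounts and the build mm10, per the submitters' processing notes. Counts of 1 to 20 were odd in 26.7% of cases against 49.1% of counts of at least 1000, so the halving of counts was tried as an alternative. The table has 48716 rows. Rows without a gene name (18483, holding 0.69% to 1.41% of a library's counts) were left out, and 6 columns were not used.

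The fit was edgeR 4.0.16 in R 4.3.3 (quasi-likelihood F test, TMM scaling, filterByExpr, 16145 genes, 1 mean for each of 22 groups over all 66 libraries), with p-values adjusted by Benjamini-Hochberg over all genes tested at 0.05. Log2 values used a prior count of 2. A second fit added the replicate number within each sex as a block. The number was taken to pair 2 groups where deviations of same-numbered libraries correlated above 0.1 for every number. Correlations were 0.22 to 0.65 in the 8 paired female comparisons and 0.10 to 0.25 in the 6 paired male ones, and the rule was not met by Med13l and Ash1l in males or by Kdm6b in either sex. The average over the sexes was taken as paired where both sexes were.

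Alternatives were DESeq2 1.42.0, other scalings, no low-count filter, halved counts, no virus as control, each sex on its own, and leaving out libraries. The members and gene lists were chosen with earlier results of these data known. All 10 genes were described. Of the pathway list, the text names up to 8 genes called in the same direction in the most knockdowns and the 3 with the smallest p where a member was called. Scripts were tested on simulated data. No 2 replicates agreed within sampling noise.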

Additional observations from a re-analysis of the deposited data

How the results depend on the processing

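Replicate numbers did not pair the libraries in all comparisons, so the block over all 180 and 90 changes stands here. With the replicate block, calls on the 10 genes rose from 0 to 5 within a sex (7.4% of all genes) and from 0 to 10 averaged over the sexes (15.5%), from 1 to 9 of 10 genes for differences among the knockdowns, and on the pathway list from 85 to 206. Beside the paired calls these were Dusp14 after Ash1l shRNA (0.30, adjusted p = 0.0349) and, after Med13l shRNA averaged over the sexes, Dusp4 (-0.93, 1.89e-04), Etv5 (-0.69, 7.17e-04), Spry2 (-0.58, 6.98e-04) and Spry4 (-0.55, 0.03996). Within males Dusp4, Etv5 and Spry2 also passed after Med13l shRNA. The Dusp14 call was lost without 9 of 12 libraries in turn (up to 0.197) and the Spry4 call without 8 of 12 (up to 0.11), and within males those on Etv5 and Spry2 without 2 of 6 (up to 0.0801 and 0.0866). The averaged calls on Dusp4, Etv5 and Spry2 after Med13l shRNA remained without any 1 library (up to 0.00151, 0.0064 and 0.00606). So did the call on Dusp4 within males (up to 0.0408). With no virus as control these calls also remained (0.000715, 0.00814, 0.00662 and 0.00612). These comparisons are not paired, and their calls are no measure of a stronger effect. The block changed no call between the controls or of the sex difference.

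Without the block, each sex on its own gave 3 calls. With the block within a sex, no filter on low counts gave 3 calls, each sex on its own 10, and no virus as control 8 (4 higher and 4 lower). For these alternatives, and for libraries left out, the share of all genes called was not counted. Leaving out 1 library at a time gave 0 calls within a sex and 0 to 1 averaged over the sexes, the 1 being Dusp4 after Med13l shRNA without the Med13l female library with number 2 (-1.29, adjusted p = 0.0113). With the block it gave 2 to 7 and 6 to 11 calls, and for the pathway list 169 to 206, against 68 to 92 without the block. Over 15 gene results, 256 of 275 alternatives without the block and 192 of 245 with it kept direction and side of the threshold, and 0 changed direction. DESeq2 for differences among the knockdowns was not run, and with the block libraries were left out only of the nontargeting group and knockdowns with a called gene. With 3 libraries a group and the spread seen between numbers, a missing call without the block does not exclude a change that lies inside the printed intervals.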
